A study of Homo sapiens with 4 samples.

Results

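Chromatin accessibility was examined at 10 genes for transcription factors of squamous epithelium, namely TP63, SOX2, KLF5, KLF4, GRHL2, GRHL3, EHF, ELF3, OVOL1 and TFAP2A, out of 20033 protein-coding genes. A peak was assigned to a gene when it overlapped the gene body in GENCODE (GRCh38) or the 10 kb upstream of it, and no accessibility value entered this rule. The genes were chosen with earlier results of these data known. The 10 windows covered 827 kb and held 199 of the 250225 peaks in the 4 lists, which merged into 68 of 93211 regions. Regions are numbered within each gene from the lowest coordinate up.

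The cells were HK1, an established line of human nasopharyngeal carcinoma. ATAC-seq, in which a transposase inserts adapters into open chromatin, gave 1 peak list for each of 4 groups: HK1-WT without treatment (WT), HK1-WT with IFN-γ (WT-IFN-γ), FLI1 knockout cells labelled sgFLI1 without treatment (FLI1-KO), and the same knockout with IFN-γ (FLI1-KO-IFN-γ). FLI1 is an ETS-family transcription factor, and IFN-γ is the cytokine whose response in tumour cells the study addressed. The labels give no dose or time of IFN-γ and do not say whether the knockout is a clone or a pool, so a difference between the genotypes cannot be told apart from a difference between cell lines. The peak lists hold no measure of FLI1 protein, and the knockout was not checked here. With 1 library a group, no comparison has a replicate check, no p-value is given, and every interval below is a 95% interval that covers counting error only.

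The 10 factors sit at the core of the stratified squamous programme. TP63, which is made as a long and a short amino-terminal isoform from separate starts, specifies basal keratinocytes, and SOX2 is a partner of TP63 that is often amplified in squamous carcinoma. KLF5, TFAP2A and the grainyhead-like factors GRHL2 and GRHL3 act in proliferating and barrier-forming layers, whereas KLF4, the epithelial ETS factors EHF and ELF3, and OVOL1 are known for roles in differentiation and in keeping the epithelial state.

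The summits that the comparisons below turn on are printed first, from the plus strand of GRCh38 for genes on that strand and from the minus strand for TFAP2A, whose strand is given in brackets. Each run covers 100 bp on either side of the summit in the library with the highest −log10 q, except at SOX2, where the bases just before the canonical start are shown. TP63 regions 6 and 7 were listed in the WT libraries and in neither FLI1-KO library, TP63 region 14 was the strongest TP63 peak in every library, and the SOX2 start and GRHL3 region 8 differed between lists. GRHL3 region 10 was listed in the FLI1-KO libraries only, and KLF5 region 2 and TFAP2A region 2 stand for strong sites shared by all. Capitals mark a match to a searched motif: STAT (TTCNNNGAA) in TP63 region 7, SOX (AACAAAG, here on the other strand) in TP63 region 14, TEAD (ACATTCC, on the other strand) in GRHL3 region 8, and AP-2 (GCCNNNGGC) at SOX2, KLF5, GRHL3 region 10 and TFAP2A.
TP63 region 6, chr3:189772995-189773195 (+): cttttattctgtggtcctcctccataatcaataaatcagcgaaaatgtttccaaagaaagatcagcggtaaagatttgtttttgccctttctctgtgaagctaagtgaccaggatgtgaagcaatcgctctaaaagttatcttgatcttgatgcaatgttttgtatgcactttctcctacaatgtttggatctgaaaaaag
TP63 region 7, chr3:189781567-189781767 (+): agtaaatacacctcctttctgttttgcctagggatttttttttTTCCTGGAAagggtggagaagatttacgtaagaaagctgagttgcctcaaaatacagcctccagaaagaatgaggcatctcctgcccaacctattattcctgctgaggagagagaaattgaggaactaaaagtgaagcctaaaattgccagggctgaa
TP63 region 14, chr3:189863071-189863271 (+): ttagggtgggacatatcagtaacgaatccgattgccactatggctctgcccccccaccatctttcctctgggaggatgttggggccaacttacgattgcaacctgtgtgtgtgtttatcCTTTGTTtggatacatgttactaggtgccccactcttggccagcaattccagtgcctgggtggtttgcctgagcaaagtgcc
SOX2 upstream, chr3:181711725-181711924 (+): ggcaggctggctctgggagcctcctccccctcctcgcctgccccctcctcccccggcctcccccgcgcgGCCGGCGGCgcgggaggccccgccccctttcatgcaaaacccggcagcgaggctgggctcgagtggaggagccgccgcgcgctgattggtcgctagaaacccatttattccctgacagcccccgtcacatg
KLF5 region 2, chr13:73058665-73058865 (+): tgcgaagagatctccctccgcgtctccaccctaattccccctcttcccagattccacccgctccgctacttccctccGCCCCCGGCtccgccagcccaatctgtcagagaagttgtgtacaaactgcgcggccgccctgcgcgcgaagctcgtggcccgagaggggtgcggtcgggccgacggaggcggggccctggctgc
GRHL3 region 8, chr1:24277462-24277662 (+): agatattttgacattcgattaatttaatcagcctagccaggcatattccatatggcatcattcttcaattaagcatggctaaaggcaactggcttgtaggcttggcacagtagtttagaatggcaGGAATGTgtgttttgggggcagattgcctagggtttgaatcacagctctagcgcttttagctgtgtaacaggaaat
GRHL3 region 10, chr1:24290094-24290294 (+): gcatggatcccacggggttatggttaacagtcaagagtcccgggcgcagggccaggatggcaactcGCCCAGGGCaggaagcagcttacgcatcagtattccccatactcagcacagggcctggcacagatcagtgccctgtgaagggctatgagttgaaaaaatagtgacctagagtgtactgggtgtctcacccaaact
TFAP2A region 2, chr6:10404021-10404221 (-): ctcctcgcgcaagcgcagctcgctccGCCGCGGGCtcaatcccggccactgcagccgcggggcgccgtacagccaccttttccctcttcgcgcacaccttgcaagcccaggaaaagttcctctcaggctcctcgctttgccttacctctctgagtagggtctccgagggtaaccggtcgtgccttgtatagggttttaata

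Across the 4 libraries the 10 genes carried 52 (WT), 53 (WT-IFN-γ), 48 (FLI1-KO) and 46 (FLI1-KO-IFN-γ) peaks, and all 10 had at least 1 peak in every library. Per Mb of window this was 62.9, 64.1, 58.1 and 55.6 peaks, against 27.0, 30.1, 28.2 and 26.9 over all protein-coding genes. It was 51.1, 46.0, 52.8 and 52.8 over 8 markers of other cell types. Over 10 factors of other lineages it was 37.5, 47.8, 40.9 and 37.5. For 24 further epithelial factors the values were 33.0, 37.2, 33.0 and 29.6, and for 12 squamous markers 84.8, 92.5, 82.8 and 79.0. A density above that of all protein-coding genes was thus not particular to the 10 genes. TP63 had 11, 10, 7 and 4 peaks in the same order of libraries. GRHL3 ran the other way, with 10, 13, 13 and 15 peaks (2, 3, 3 and 4 in a window from its canonical transcript), and with the full windows these genes had the largest differences between WT and FLI1-KO-IFN-γ. SOX2 had 3, 2, 1 and 1 peaks, while KLF5 and OVOL1 had 2 in each library and GRHL2 had 11, 13, 9 and 12. The FLI1-KO lists came from libraries of lower tag density (6.93 and 6.86 tags per kb, against 8.04 and 8.84 in the WT libraries), and the part of this in the counts was not tested.

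**Figure D1:**
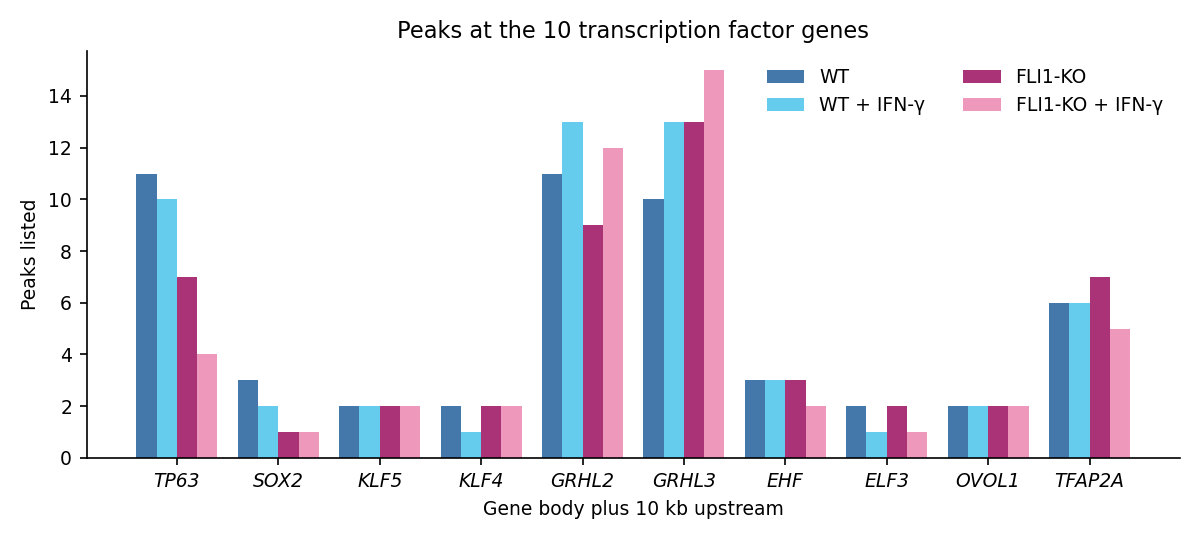
Number of peaks listed in the window of each gene (gene body plus 10 kb upstream), with 1 bar for each of the 4 libraries. TP63 goes from 11 peaks in WT to 4 in FLI1-KO-IFN-γ, and GRHL3 goes from 10 to 15.

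Most of the regions lay away from starts. Of the 68 regions, 41 were intronic by their summit, 25 were upstream of the canonical start and 2 lay downstream of the canonical transcript, and 6 (8.82%) were within 1 kb of a canonical start of any protein-coding gene, against 12.3% of all regions. Their median width was 847 bp against 700 bp over all regions, and their median GC content was 48.3% against 49.8%.

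Read from all 4 lists together, 33 of the 68 regions were listed in every library, which is 48.5% (Wilson interval 37.1 to 60.2%) beside 43.9% of all regions. In 1 library alone there were 10 regions, beside 32.4% of all regions. The 68 regions also ranked higher by −log10 q, with a median percentile of 53.5 against 43.5 for all regions, and the part of this in the shares was not tested. In both WT lists and neither FLI1-KO list there were 7 regions, 10.3% (5.08 to 19.8%) beside 4.20% of all regions, and TP63 held 4 of them, GRHL2 held 2 and SOX2 held 1. In both FLI1-KO lists and neither WT list there were 4 regions, 5.88% (2.31 to 14.2%) beside 3.56% of all regions, and all 4 were in the GRHL3 window, 3 of them outside that of its canonical transcript. The first interval lies above its background share, for counting error only, and the second includes its background share. Both treat the regions as separate draws although these cluster in 10 windows, so no excess is read from the first.

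TP63 (chromosome 3, 189631389 to 189897276) had 14 regions, all intronic, of which 3 were listed in every library. Neither of its starts was marked by a peak: the nearest summits to the start of the short isoform, at 189789659, lay 2095 bp (WT), 2235 bp (WT-IFN-γ), 1869 bp (FLI1-KO) and 2843 bp (FLI1-KO-IFN-γ) before it. The strongest TP63 peak, region 14 in intron 4 and 231782 bp from the canonical start, held 52, 56, 50 and 54 tags at its summit in the same order. Its FLI1-KO to WT log2 ratio, after division by the median ratio of all matched pairs, was 0.11 (−0.48 to 0.70) untreated and 0.37 (−0.20 to 0.93) with IFN-γ, so the libraries were within counting error at this site.

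Between the canonical and the short-isoform start, intron 3 carried 3 regions that were listed in the WT libraries alone. Region 6, at 141706 bp, held 27 (WT) and 38 (WT-IFN-γ) tags. Levels were scaled between libraries by tag density and by the median ratio of all matched pairs. Scaled to the knockout libraries, region 6 would have 24.0 tags in FLI1-KO, where 9 would have been listed. In FLI1-KO-IFN-γ it would have 28.4, where 11 would have been listed (the local background scaled with the library). Region 7, at 150278 bp, held 14 (WT) and 48 (WT-IFN-γ) tags. The same scaling leaves 12.5 tags in FLI1-KO, with 7 needed, and 35.8 tags in FLI1-KO-IFN-γ, with 10 needed. These levels lay above the listing limit at regions 6 and 7, by less at region 7 without treatment. They have no interval, and the regions were picked because the WT libraries listed them, so the WT tags may run high. The same limit, for the library that listed a peak, holds for every level scaled between libraries below. The cause of an absence was not tested. Region 5 held 12 and 16 tags, and a knockout library would be left with 10.7 and 11.9 tags where 7 would be listed, a smaller margin.

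Region 13, in intron 4, was also listed in both WT libraries, with 21 and 16 tags. Scaling would leave 18.7 tags in FLI1-KO, where 10 were needed, and 11.9 in FLI1-KO-IFN-γ, where 11 were needed, so its absence cannot be told from depth in the IFN-γ library. Region 10, also in intron 4, held 17 (WT), 22 (WT-IFN-γ) and 14 (FLI1-KO) tags and was not listed in FLI1-KO-IFN-γ. Region 3, in intron 1, was listed in WT alone with 23 tags, and region 11, in intron 4, in WT alone with 17. The matched peaks of the 5 Mb on either side of TP63 had a median FLI1-KO to WT log2 ratio of 0.22 untreated and 0.15 with IFN-γ. Such matched peaks leave out any peak missing from a list, and the cause of the missing TP63 peaks was not tested. In cells measured in bulk, a site open in fewer cells and a site less open in each cell cannot be told apart.

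**Figure D2:**
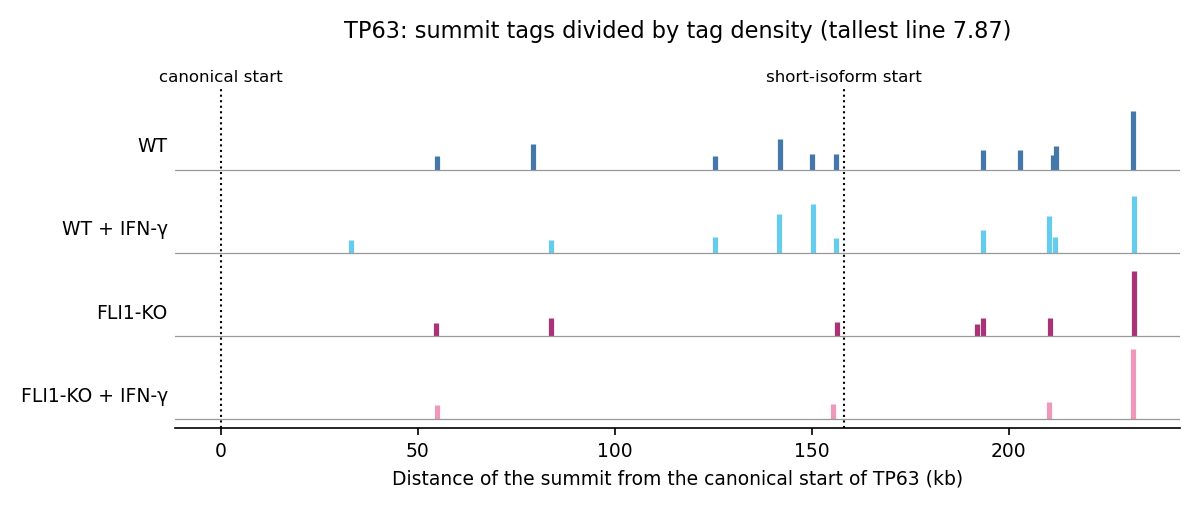
Peaks at TP63 by distance of the summit from the canonical start in kb, 1 track per library, with line height the tags at the summit divided by the tag density of the library (in tags per kb). The tall line near the right end is in all 4 tracks, and the lines at 141706 and 150278 bp, left of the short-isoform start, are in the WT tracks only.

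SOX2 (chromosome 3, 181711925 to 181714436), a gene overlapped by the long non-coding gene SOX2-OT, had 3 regions. The peak over its start held 25 tags in WT (16.2 to 36.9) and 32 tags in WT-IFN-γ (21.9 to 45.2), with summits 80 and 35 bp before the start, and was in neither FLI1-KO list. The scaling would leave 22.2 tags in FLI1-KO and 23.9 in FLI1-KO-IFN-γ, where 10 and 11 would have been listed. A second region, 2174 bp upstream, was in every library with 20, 26, 14 and 15 tags, and its FLI1-KO to WT log2 ratios of −0.35 (−1.44 to 0.71) and −0.37 (−1.39 to 0.60) were within counting error. Around SOX2, whose 5 Mb flanks overlap those of TP63, matched peaks had a positive median FLI1-KO to WT log2 ratio, 0.24 untreated and 0.17 with IFN-γ.

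Across the 10 genes, 5 had a peak with its summit within 1 kb of the canonical start in each WT library, and 4 had one in each FLI1-KO library. Over all protein-coding genes the shares were 59.2%, 60.1%, 59.4% and 58.7%. Hence the strongest sites of GRHL2, GRHL3, EHF, OVOL1 and TP63 were not at the canonical starts, and for none of these 5 genes was a start peak listed in any library. The nearest summits lay 9131 bp or more from the start of GRHL2, 2868 bp or more from GRHL3, 12816 bp or more from EHF and 5487 bp or more from OVOL1. With the wider criterion of 3 kb from any annotated start, all 10 genes had a peak in every library.

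KLF5 (chromosome 13, 73054976 to 73077541), a factor of proliferating epithelium, had 2 regions, both in every library. Its start peak (region 2) held 158, 197, 190 and 139 tags, again in the order WT, WT-IFN-γ, FLI1-KO, FLI1-KO-IFN-γ. The FLI1-KO to WT log2 ratio was 0.43 (0.12 to 0.75) untreated and −0.08 (−0.41 to 0.24) with IFN-γ, and the neighbouring 5 Mb on either side stood at 0.17 and 0.06. Region 1, 2691 bp upstream, held 136, 105, 121 and 91 tags.

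KLF4 (chromosome 9, 107484852 to 107490482), a differentiation factor, had its start peak at 155, 151, 100 and 101 tags. The 2 WT libraries were above the 2 FLI1-KO libraries in tags, and the log2 ratio was −0.46 (−0.84 to −0.09) untreated and −0.16 (−0.54 to 0.21) with IFN-γ. The neighbourhood moved with it, with a median log2 ratio of −0.33 untreated and −0.36 with IFN-γ among matched peaks within 5 Mb, so the peak was 0.13 below and 0.20 above its neighbours on the log2 scale. Region 1, in intron 2, held 49, 34 and 25 tags in WT, FLI1-KO and FLI1-KO-IFN-γ and was not listed in WT-IFN-γ, where 51.6 tags would be left from the WT level and 39 were needed.

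ELF3 (chromosome 1, 202007945 to 202017183), an epithelial ETS factor, had its start peak at 173, 159, 109 and 92 tags. The FLI1-KO to WT log2 ratio was −0.50 (−0.86 to −0.14) untreated and −0.37 (−0.75 to 0.01) with IFN-γ, while the neighbourhood stood at 0.11 and 0.15. The untreated interval excludes 0 for counting error and the IFN-γ interval does not. Region 1, 10817 bp upstream and overlapping RNPEP, was listed in the untreated libraries alone, with 28 tags in WT and 25 in FLI1-KO.

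TFAP2A (chromosome 6, 10393186 to 10419659), which encodes the AP-2α factor, had 6 regions, and its region 2 had the highest tag count and −log10 q of the 68 regions. Its start peak held 148, 169, 155 and 120 tags, and region 2, in intron 4, held 239, 266, 209 and 160 tags. The FLI1-KO to WT log2 ratio of region 2 was −0.03 (−0.30 to 0.25) untreated and −0.31 (−0.60 to −0.02) with IFN-γ. Region 3, in intron 1 and shared with TFAP2A-AS1, held 133, 174, 87 and 88 tags, with log2 ratios of −0.44 (−0.85 to −0.04) and −0.56 (−0.95 to −0.18). The neighbourhood of the gene stood at −0.09 and −0.07. Region 6, 14743 bp upstream and overlapping LINC00518, held 50, 35 and 26 tags and was not listed in FLI1-KO-IFN-γ, where 10 tags would have been listed.

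**Figure D3:**
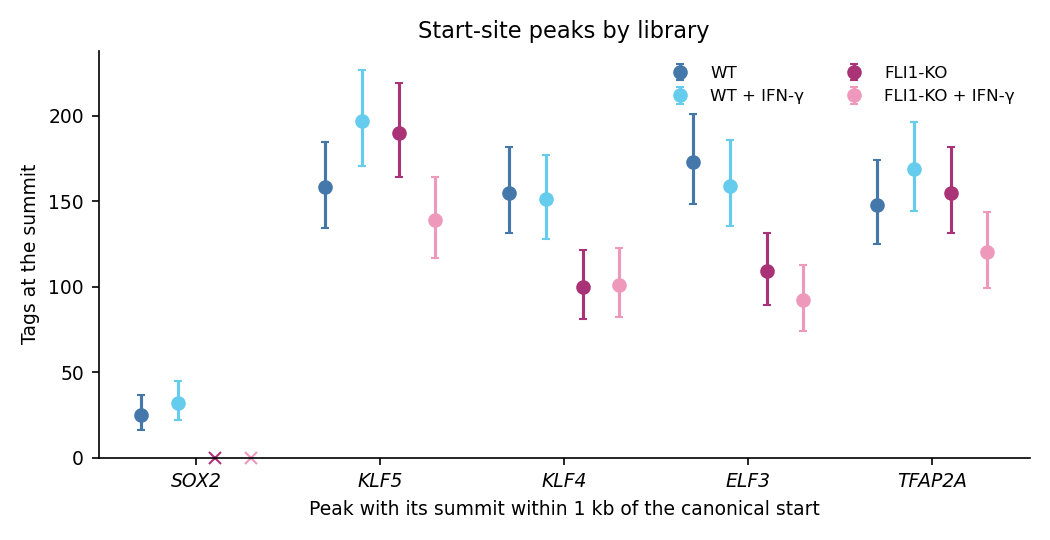
Tags at the summit of the peak within 1 kb of the canonical start, for the 5 genes that had one, by library; bars are exact 95% Poisson intervals and a cross at 0 means that no peak was listed. KLF5, KLF4, ELF3 and TFAP2A have a point in every library (92 to 197 tags), and SOX2 has 25 and 32 tags in the WT libraries only.

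GRHL3 (chromosome 1, 24199558 to 24364482) had 20 regions, of which 8 were in every library. Its GENCODE body is long because 1 annotated transcript begins far upstream of the canonical start at 24319357. With the window drawn from the canonical transcript instead, GRHL3 had 2, 3, 3 and 4 peaks, the 10 genes together had 44, 43, 38 and 35, and the number gained in FLI1-KO against WT was 5 rather than 9. The strong shared sites were region 11, 24784 bp upstream, with 160, 161, 106 and 104 tags, region 7, 52768 bp upstream, with 113, 123, 129 and 102 tags, and region 14, 2868 bp into intron 1, with 93, 78, 105 and 94 tags. Of these, region 7 had the highest −log10 q. The FLI1-KO to WT log2 ratio of region 11 was −0.43 (−0.79 to −0.06) untreated and −0.21 (−0.58 to 0.16) with IFN-γ. For region 7 it was 0.36 (−0.02 to 0.74) and 0.15 (−0.24 to 0.54). For region 14 it was 0.34 (−0.07 to 0.76) and 0.69 (0.24 to 1.14). Region 20, at the far edge of the window and overlapping STPG1, was in every library with 52, 86, 51 and 57 tags, and its WT peak only touched the window.

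The 4 regions that were listed in the FLI1-KO libraries alone were all in the GRHL3 window, and 1 of them, region 18, remained in the window of the canonical transcript. Region 10, 29163 bp upstream of the canonical start, held 63 tags in FLI1-KO and 59 in FLI1-KO-IFN-γ. Scaled to the WT libraries this is 70.8 and 79.0 tags, where 36 and 38 would have been listed, since the local background is high. Region 12 held 23 and 24 tags, equal to 25.8 and 32.2 in the WT libraries, where 15 and 14 would have been listed. The remaining ones were faint. Region 4 held 11 and 9 tags, equal to 12.4 in WT and 12.1 in WT-IFN-γ, where 8 would have been listed in each. Region 18 held 8 and 10 tags. For it WT would be left with 8.99 tags, where 9 were needed, and WT-IFN-γ with 13.4 tags, where 9 were needed.

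GRHL3 region 8, 41795 bp upstream, had the highest ratio of WT-IFN-γ to WT among the matched pairs. It held 18 tags without and 67 with IFN-γ in WT cells and 20 in FLI1-KO-IFN-γ, and it was not listed in FLI1-KO, where 9 tags would have been listed and 16.0 would be left from the WT level. The WT-IFN-γ library was above the others. The log2 ratio of WT-IFN-γ to WT was 1.82 (1.05 to 2.66), and that of FLI1-KO-IFN-γ to WT-IFN-γ was −1.32 (−2.12 to −0.58). Region 1, 127201 bp upstream, was listed in all libraries but WT, with 33, 24 and 19 tags, and region 19, in intron 15, likewise with 13, 18 and 13. Region 2, over the upstream transcript start, was in WT-IFN-γ alone with 40 tags, where 38.0 tags would be left in WT and 20 needed. Region 15, in intron 1, was in WT alone with 18 tags.

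GRHL2 (chromosome 8, 101492439 to 101669726), which maintains epithelial junction genes, had 14 regions, all intronic, with 8 in every library. Region 9, in intron 8, was its strongest by −log10 q and held 66, 103, 22 and 27 tags in that order of libraries. Both WT libraries were above both FLI1-KO libraries. The FLI1-KO to WT log2 ratio was −1.42 (−2.18 to −0.70) untreated and −1.51 (−2.18 to −0.89) with IFN-γ, beside neighbourhood medians of 0.02 and −0.004. Region 4, in intron 1, stood the other way, with 34, 35, 52 and 45 tags and log2 ratios of 0.78 (0.13 to 1.45) and 0.78 (0.11 to 1.46).

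Also at GRHL2, region 10 held 20 (WT) and 39 (WT-IFN-γ) tags and was in neither FLI1-KO list. The scaling would leave 17.8 and 29.1 tags there, where 9 and 12 would have been listed. Region 6 held 14 (WT) and 19 (WT-IFN-γ) tags and was also in neither FLI1-KO list. Scaled, this is 12.5 tags in FLI1-KO, where 8 were needed, and 14.2 in FLI1-KO-IFN-γ, where 11 were needed. Region 13, in intron 12, held 27, 59, 25 and 25 tags, so that the WT-IFN-γ library was above the rest. Regions 1 and 5 were listed in the 2 IFN-γ libraries alone, with 35 and 26 tags and with 29 and 14 tags. The strongest site near the start, region 2, held 67, 51, 60 and 71 tags. Its FLI1-KO to WT log2 ratio was 0.01 (−0.52 to 0.53) untreated and 0.90 (0.36 to 1.45) with IFN-γ.

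**Figure D4:**
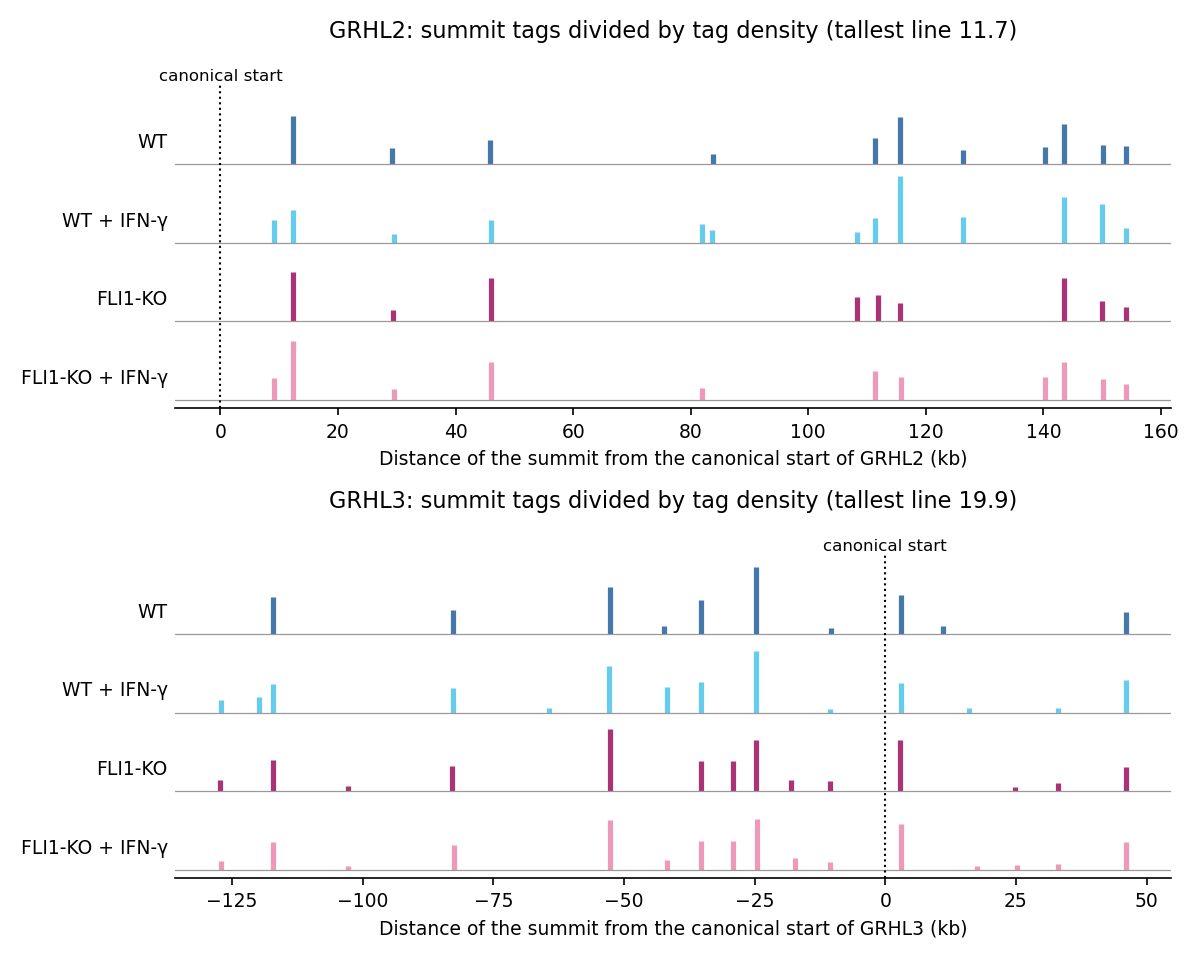
Peaks at GRHL2 (top) and GRHL3 (bottom) by distance of the summit from the canonical start in kb, 1 track per library, with line height the summit tags divided by tag density. At GRHL2 the line at 115631 bp is lower in both FLI1-KO tracks, and at GRHL3 the line 29163 bp before the start is in the FLI1-KO tracks only.

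EHF (chromosome 11, 34621093 to 34663288), another epithelial ETS factor, had 3 intronic regions. The strongest, region 3 in intron 6, held 104, 118, 94 and 81 tags, with FLI1-KO to WT log2 ratios of 0.02 (−0.40 to 0.44) and −0.12 (−0.55 to 0.30). Region 1, in intron 1, held 30, 40, 13 and 23 tags, with FLI1-KO to WT log2 ratios of −1.04 (−2.10 to −0.06) untreated, from a pair below the limit of 60 tags used for the counts of pairs, and −0.38 (−1.18 to 0.40) with IFN-γ. Its untreated summits differed in position, at 13172 bp (WT) and 12816 bp (FLI1-KO) from the start. Region 2, also in intron 1, held 24, 30 and 16 tags and was not listed in FLI1-KO-IFN-γ. OVOL1 (chromosome 11, 65787063 to 65797214), a repressor of mesenchymal genes, had 2 regions in every library. Region 1, upstream and overlapping AP5B1, held 106, 95, 78 and 66 tags, and region 2, in intron 1, held 29, 43, 17 and 19 tags. Its log2 ratios of −0.60 (−1.56 to 0.31) and −0.76 (−1.62 to 0.05) included 0, and its untreated summits lay at 6018 bp (WT) and 5487 bp (FLI1-KO).

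For the 4 comparisons, a peak without any overlapping peak in the other list was counted as gained or lost. IFN-γ in WT cells gained 11 of 53 peaks (20.8%; background 25.2%) and lost 9 of 52 (17.3%; background 15.9%), the gained ones at GRHL3 (5), TP63 (3) and GRHL2 (3). In FLI1-KO cells IFN-γ gained 6 of 46 (13.0%; background 18.0%) and lost 8 of 48 (16.7%; background 22.2%). All these shares were near those of all peaks, with Wilson intervals that include them.

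Against WT, untreated FLI1-KO cells had gained 9 of 48 peaks (18.8%; background 25.3%) and lost 13 of 52 (25%, 15.2 to 38.2%; background 21.4%). With IFN-γ, FLI1-KO cells had gained 9 of 46 (19.6%; background 19.8%) and lost 16 of 53 (30.2%, 19.5 to 43.5%; background 29.0%). Over the 10 genes the lost share was thus near the background. The changes were uneven among them, with TP63 contributing 6 of the 13 and 7 of the 16 lost peaks, and GRHL3 contributing 6 of the 9 and 5 of the 9 gained peaks. TP63 held 11 of the 52 WT peaks and 10 of the 53 WT-IFN-γ peaks. GRHL3 held 13 of the 48 FLI1-KO peaks and 15 of the 46 FLI1-KO-IFN-γ peaks. With the GRHL3 window from its canonical transcript, the 10 genes gained 5 peaks untreated and 6 with IFN-γ, rather than 9 and 9.

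Peaks matched one to one, with more than 60 tags in the pair, were then compared by their summit tags. The summits of a pair need not coincide, as at GRHL3 region 8. IFN-γ in WT cells gave 30 such pairs, of which 3 were past 2-fold higher (background 1.99%) and 0 past 2-fold lower (background 0.179%). The 3 were GRHL3 region 8, TP63 region 7, with a log2 ratio of 1.70 (0.82 to 2.68), and GRHL2 region 13, with 1.05 (0.37 to 1.77). In FLI1-KO cells IFN-γ gave 22 pairs with 0 past 2-fold in either direction (backgrounds 0.0643% higher and 0.0227% lower). The 3 sites above could not be among these 22 pairs, so this count says nothing about them. TP63 region 7 was in neither FLI1-KO list, and GRHL3 region 8 was not listed in FLI1-KO. GRHL2 region 13 held 25 and 25 tags, below the 60-tag limit, with a log2 ratio of 0.18 (−0.68 to 1.03). Whether the response to IFN-γ at these sites differed between the genotypes could not be tested with single libraries.

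Of 24 pairs in FLI1-KO against WT, 1 was past 2-fold lower, GRHL2 region 9 (background 1.48%), and 0 were higher (background 2.73%). With IFN-γ, 2 of 27 pairs were lower, GRHL2 region 9 and GRHL3 region 8 (background 2.68%), and 0 were higher (background 1.83%). The medians over the pairs at the 10 genes were 0.06 and −0.01 for IFN-γ in WT and FLI1-KO cells, and −0.001 and −0.08 for the genotypes untreated and with IFN-γ, beside 0 by construction for all pairs, so the median pair was within 0.1 of no difference on the log2 scale. When the fold over local background deposited by the authors was used in place of the tags, 0 of these pairs passed 2-fold in any comparison. With IFN-γ in WT, the log2 ratio became 0.96 for GRHL3 region 8, 0.91 for TP63 region 7 and 0.59 for GRHL2 region 13. In the genotype comparisons it became −0.67 and −0.73 for GRHL2 region 9, and −0.93 for GRHL3 region 8 with IFN-γ. Ratios given above for other sites also shrank, untreated to −0.21 at the ELF3 start peak, 0.02 at the KLF4 start peak and 0.16 at GRHL2 region 4. On that scale 0.126% of all pairs were past 2-fold higher with IFN-γ in WT.

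**Figure D5:**
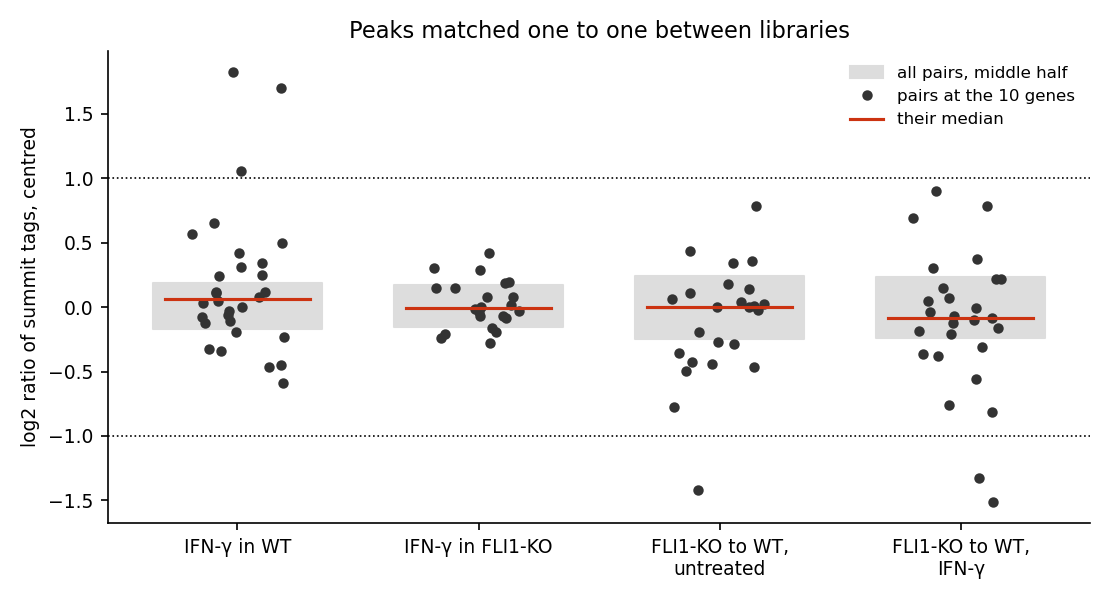
Log2 ratio of summit tags for peaks matched one to one, 1 point per pair at the 10 genes, in the 4 comparisons; the red line is their median, the grey box spans the middle 50% of all pairs, and dotted lines mark 2-fold. Most points lie in or near the grey box, and the points past 2-fold are 3 with IFN-γ in WT, 1 in FLI1-KO against WT and 2 in that comparison with IFN-γ.

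Motif matches were counted within 100 bp of the summit on both strands. The AP-1 sequence (TGACTCA) was found in 12 of the 68 regions (17.6%, against 18.3% of all regions), among them TP63 regions 10 and 12, KLF4 region 2 and GRHL3 region 11. The AP-2 sequence was found in 13 regions, 19.1% (11.5 to 30.0%) against 11.3%. SOX (AACAATG or AACAAAG) was in 5 regions (7.35% against 7.45%) and TEAD in 4 (5.88% against 4.43%). STAT was in 3 regions (4.41% against 6.56%), namely TP63 regions 7 and 12 and GRHL3 region 9. The ETS sequence (CCGGAAGT or AGGAAGT), of the family to which FLI1, EHF and ELF3 belong, was in 1 region, EHF region 1 (1.47%, 0.26 to 7.87%, against 6.68%). KLF (CCACACCC) was in 1 region (1.47% against 2.93%), and the GRHL sequence (AACNGGTT) and the p53/p63 element were in 0 regions (1.22% and 0.133% of all regions). These are matches of letters in a short window and do not show binding.

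Other genes of the epithelial programme were counted the same way. A list of 24 further epithelial factors had 87, 98, 87 and 78 peaks in the same order of libraries, start peaks at 17, 18, 16 and 16 genes, and 66 of 114 regions in every library (57.9%). Among them RUNX1, whose annotated window spans 1227 kb, had 31, 35, 31 and 30 peaks, TRPS1 had 8, 8, 7 and 5, PRDM1 had 5, 8, 5 and 4, and TP73, a relative of TP63, had 8, 9, 8 and 7. The 12 squamous marker genes had a peak at 11, 12, 10 and 12 genes and a start peak at 6 genes in each library. Of 8 markers of other cell types, 7, 6, 6 and 6 had a peak within the window but 0, 0, 1 and 0 had a start peak, and of 10 factors of other lineages 1 or 0 had one. Start peaks were thus listed at 6 of the 12 squamous markers, a share below the 59.2% of all protein-coding genes in WT, and at 1 or 0 of the genes in each list of other cell types and lineages.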

How the data were processed

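ATAC-seq of HK1 cells was given as 1 peak list for each of 4 groups. Per the study's methods and processing notes, the authors trimmed reads (Trimmomatic), aligned them to GRCh38 (Bowtie2 2.3.4.1), removed duplicates and called peaks with MACS2 2.1.2 at a q of 0.05; a reproducibility filter is named, but whether the lists are pooled, filtered or shifted for the transposase is not given in the sources used here. The deposited lists hold fold over local background (a ratio) and −log10 p and −log10 q at each summit. Solving the deposited fold and −log10 p together gave a whole-number summit pileup (tags) for 100% of peaks, and tag density from the lowest background and the shortest peak. Depths thus ran from 6.86 to 8.84 tags per kb, and the median summit from 26 to 31 tags.

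Peaks overlapping by at least 1 bp were merged into regions. Ratios of matched pairs were centred on the median of all pairs, which removed log2 shifts of −0.06, −0.16, 0.05 and −0.06. Intervals were exact Poisson, exact conditional binomial or Wilson (95%). Starts and exons came from GENCODE 44. Scripts were tested on simulated data (Python 3.11.15, scipy 1.17.1). The members and lists were chosen with earlier results of these data known. Named were every member's start region and strongest other region, regions in 1 or 3 lists with −log10 q of at least 5, regions past 2-fold, and up to 6 genes of the wider list by peaks gained or lost, of which 1 is not reported here. Alternatives were other q limits, windows, matching rules and scalings.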

Additional observations from a re-analysis of the deposited data

Results flagged for a closer look

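The number of peaks at the 10 genes moved in opposite directions with IFN-γ, by 1 in WT cells (from 52 to 53) and by -2 in FLI1-KO cells (from 48 to 46). It is given here because the only library of each genotype moved the opposite way. The whole lists did the same, from 59629 to 67470 peaks in WT and from 63203 to 59923 in FLI1-KO. The difference at the 10 genes was not tested, and both changes there are small beside the number of peaks gained and lost in each comparison.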

How the results depend on the processing

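No paired analysis was possible because each group has 1 library. Of 118 alternative values for 25 results, 87 stayed within 1.5 times the main count or within the interval of the main value. With −log10 q of at least 5, WT-IFN-γ gained 6 peaks against WT and FLI1-KO-IFN-γ gained 5 against WT-IFN-γ. With at least 10, the peaks numbered 31 in WT, 29 in FLI1-KO and 24 in FLI1-KO-IFN-γ, IFN-γ lost 4 in WT and gained 1 in FLI1-KO, FLI1-KO lost 7 against WT, and FLI1-KO-IFN-γ gained 2 against WT-IFN-γ. Within 10 kb of the canonical start the 4 libraries had 17, 17, 16 and 16 peaks. When a match needed summits within 250 bp, IFN-γ gained 18 and lost 16 in WT and gained 14 and lost 16 in FLI1-KO, and FLI1-KO gained 17 and lost 20 untreated and gained 14 with IFN-γ. Within 3 kb of any start, 10 genes had a peak in each library. Without centring, the median for IFN-γ in FLI1-KO was −0.17. By the fold over local background, 0 pairs passed 2-fold in the 3 comparisons that had any, and with pairs of any tag number 2 and 4 passed in the genotype comparisons. With the GRHL3 window from the canonical transcript, an alternative chosen after seeing the data, FLI1-KO gained 5 peaks against WT. The cause of these differences was not tested. Peaks near 7 or 8 tags, the lowest listed, are limited by depth.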
